A study of Mus musculus with 12 samples.

Results

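Cytokine signals that pass through the common gamma chain were followed by 10 genes in regulatory T cells (Tregs), a T cell lineage that holds other immune cells in check and is defined by the factor Foxp3. The 10 genes were taken by symbol from the 24417 genes listed in the tables. Of these, 6 encode receptor chains: Il2ra, Il2rb, Il2rg, Il7r, Il4ra and Il21r. The other 4, Cish, Socs1, Socs2 and Socs3, encode inhibitors of the same signal. The cells came from mice of the autoimmune diabetes-prone NOD strain, aged 6.8 weeks, in all groups. The mice were retrogenic, that is, their T cells grew from bone marrow given T cell receptor (TCR) genes by retrovirus, and the series describes them as carrying a pair of TCRs against insulin. The groups were islet 4-8 and spleen 4-8, with the high affinity TCR 4-8, and islet 12-4.4m1 and spleen 12-4.4m1, with the low affinity TCR 12-4.4m1, each with 3 RNA-seq libraries. The labels do not say which libraries came from separate mice or pools, so the p-values below measure the spread between libraries, which may be technical.

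The interleukins IL-2, IL-4, IL-7, IL-9, IL-15 and IL-21 signal through receptors that share the common gamma chain, the product of Il2rg, which brings the kinase JAK3 next to the JAK1 bound by the partner chain. The kinases phosphorylate STAT factors, mostly STAT5 after IL-2 or IL-7, which enter the nucleus and switch on genes that include the brakes CIS and SOCS, which in turn block the receptors or the kinases. Tregs depend on IL-2 made by other T cells, carry the high affinity receptor chain CD25 (Il2ra) at high levels and usually carry less of the IL-7 receptor CD127 (Il7r) than conventional T cells, so that high CD25 with low CD127 is the classical way to sort them.

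The label of the cells was checked against their markers: 8 of 8 Treg and T cell markers, Foxp3, Ikzf2, Ctla4, Tnfrsf18, Cd3e, Cd3g, Cd4 and Lck, had mean normalized counts of at least 10 in all 4 tables. Of these 8, 3 were called higher in islets for 4-8 and 2 for 12-4.4m1, against 5.14% and 4.63% of all genes tested. The B cell gene Pax5 and the red cell genes Hba-a1, Hba-a2, Hbb-bs and Hbb-bt were at 0 in all 4 tables, while 2 of 6 B cell and 2 of 8 myeloid markers had counts of at least 10 in the spleen TCR table. Of 6 CD8 T and NK cell markers, 2 were tested for 4-8. Klrd1 was called higher in islets (0.96, limma adjusted p 0.0139), while Eomes lay lower and did not pass (-0.77, limma adjusted p 0.0651). On the rlog scale the list summed to 44.3 to 84.0 in islet 4-8 and 65.8 to 83.5 in spleen 4-8. The endothelial marker Pecam1 was called lower in islet 4-8 (-0.67, limma adjusted p 0.0367). For 12-4.4m1 Pecam1 differed by -0.48 and did not pass (limma adjusted p 0.181). Pancreatic acinar genes moved with the tissue, with 6 of 8 tested called higher in islets for 4-8 and 6 of 7 for 12-4.4m1 and Amy2a5 at 0. Heat shock and dissociation genes did so too, with 14 of 14 and 15 of 15 called higher. The acinar transcripts summed to between 98.8 and 190 rlog-scale counts in islet 4-8 against 66.5 to 74.2 in spleen 4-8, and to 172 to 213 against 78.5 to 87.0 for 12-4.4m1. The rlog scale narrows such gaps: in the authors' deposited table for 4-8 the acinar gene Ctrb1 had 99.0 FPKM in islets and 0.136 in spleen, and Pnlip, Try4 and Cpb1 had 17.7, 20.2 and 11.2 FPKM in islets and were listed at 0 in spleen. The stress transcripts summed to 7501 to 8976 in islet 4-8 against 2310 to 2455 in spleen 4-8, and to 7188 to 8935 against 1987 to 2271 for 12-4.4m1. The part of these markers in the tissue differences below was not tested. In bulk RNA, fewer cells of a type and less RNA per cell cannot be told apart. In the islet groups, 3 libraries (4-8 replicate 2, 12-4.4m1 replicates 1 and 2) have titles in a style with the word Treg and the others a style with an R, and 1 column of the islet TCR table, used as islet 4-8, has no matching title. For replicate 2 of both spleen groups the sample description points to the tissue table of the opposite TCR, and the title was followed.

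Of the 10 genes, 3 hold, near their transcription start, the letters that STAT5 dimers are known to bind. The motif searched was TTCNNNGAA, which reads the same on both strands, in windows of 300 bases (250 before the start and 50 from it on) from RefSeq on GRCm38.p6. Of the 10 genes, 8 had a window and 3 of these held the motif, against 8.3% of all 32851 windows. The windows of Il7r, which had the widest tissue difference, and of the inhibitor genes Cish and Socs3 are printed 5′ to 3′ along the gene's strand, with the motif in capitals, so that the letters can be read beside the values of the genes.
Il7r, chr15:9529827-9530126, minus strand: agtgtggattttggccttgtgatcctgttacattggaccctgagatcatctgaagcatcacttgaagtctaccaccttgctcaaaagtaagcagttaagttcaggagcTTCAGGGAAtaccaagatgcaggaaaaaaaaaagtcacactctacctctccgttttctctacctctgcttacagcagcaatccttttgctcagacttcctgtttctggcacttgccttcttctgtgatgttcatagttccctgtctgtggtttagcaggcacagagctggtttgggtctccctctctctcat
Cish, chr9:107296409-107296708, plus strand: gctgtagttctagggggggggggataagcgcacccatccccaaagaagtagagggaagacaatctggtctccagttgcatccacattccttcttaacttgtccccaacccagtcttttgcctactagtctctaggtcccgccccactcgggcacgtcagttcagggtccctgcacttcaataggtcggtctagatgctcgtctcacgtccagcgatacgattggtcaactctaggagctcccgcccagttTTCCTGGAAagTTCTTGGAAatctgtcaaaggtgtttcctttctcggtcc
Socs3, chr11:117969317-117969616, minus strand: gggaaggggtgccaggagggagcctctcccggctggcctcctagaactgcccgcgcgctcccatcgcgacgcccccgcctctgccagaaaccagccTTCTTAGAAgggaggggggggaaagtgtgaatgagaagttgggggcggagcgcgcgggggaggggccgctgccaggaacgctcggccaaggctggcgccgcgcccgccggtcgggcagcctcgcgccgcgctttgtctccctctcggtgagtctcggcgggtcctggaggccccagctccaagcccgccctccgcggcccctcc
The Il7r window held 1 copy, TTCAGGGAA, at bases 109 to 117, and the Socs3 window 1 copy, TTCTTAGAA, at bases 97 to 105. Cish held 2 copies, TTCCTGGAA at bases 251 to 259, from the annotated start on, and TTCTTGGAA at bases 262 to 270. Windows with 2 or more copies made up 0.457% of all. The windows of Il2ra, Il2rg, Il4ra, Il21r and Socs1 held none of these letters, and a match or its absence is a description of the sequence only.

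Between genes, levels can be compared per transcript length, for which the authors' deposited tables give 1 FPKM value (fragments per transcript length and library size) per group and no spread. In the authors' deposited table for 4-8, the highest values in islets were Il2rb at 425 FPKM and Il2rg at 421 FPKM, followed by Cish at 140 and Il2ra at 96.7. In spleen 4-8 the authors' deposited table put Il2rg first at 513 FPKM, then Il2rb at 275, Il7r at 222 and Cish at 206. The order of the receptor chains therefore differed between the tissues in these values, with Il7r at rank 3 of the 10 genes in spleen 4-8 and rank 8 in islet 4-8. For 12-4.4m1, the authors' deposited table gave Il7r 265 FPKM in spleen and 48.8 in islets, and Il2ra 82.7 and 69.8 FPKM.

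Set against CD25, the IL-7 receptor stood below it in the islet groups and above it in the spleen groups. In the authors' deposited table for 4-8, Il7r had 0.549 times the FPKM of Il2ra in islets and 2.64 times in spleen. For 12-4.4m1 the authors' deposited table gave ratios of 0.700 in islets and 3.20 in spleen. Among the signalling chains shared by the IL-2 and IL-15 receptors, Il2rg had 0.991 times the FPKM of Il2rb in islet 4-8 and 1.87 times in spleen 4-8 in the authors' deposited table. The same ratio in the authors' deposited table for 12-4.4m1 was 1.26 in islets and 3.42 in spleen.

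Cish, whose product CIS binds activated receptor chains of the IL-2 family, was the highest of the 4 in every group of the authors' deposited tissue tables, at 140 to 206 FPKM. The order of the inhibitors was Cish, Socs1, Socs2 and Socs3 in 3 of the 4 groups, with Socs2 above Socs1 in spleen 4-8. Socs1, a direct inhibitor of JAK kinases, had 53.9 to 87.5 FPKM in the authors' deposited tissue tables, and Socs2, known for restraining growth hormone signals, 47.1 to 68.9 FPKM. Socs3, known for blocking signals of the IL-6 receptor chain gp130, was the lowest, at 12.0 to 20.0 FPKM in the authors' deposited tissue tables. Il4ra, the binding chain for IL-4, was the lowest receptor chain, with 25.5 to 34.4 FPKM in the authors' deposited tissue tables. These values have no replicate error, so neighbours in the order cannot be called different.

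**Figure D1:**
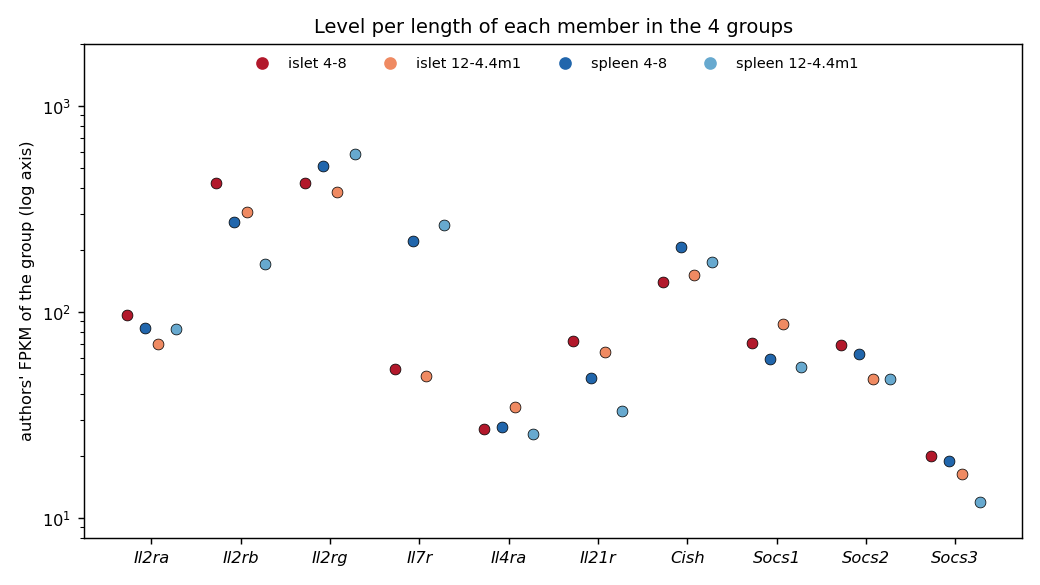
The authors' FPKM of each of the 10 genes (log axis) in the 4 groups, from the 2 tissue tables, 1 point per group and no error. Il7r lies at 48.8 to 53.0 FPKM in the islet groups and 222 to 265 in the spleen groups, while Cish stays the highest inhibitor.

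The tissue comparison asked how Tregs of one TCR differed between the islets, where insulin is made, and the spleen. It used rlog values, the authors' log2-scale values per library, and limma with Benjamini-Hochberg adjustment over all genes tested. All 10 genes passed the filter of a mean normalized count of at least 10 in all 4 tables. For 4-8, 1 of the 10 passed at an adjusted p of 0.05, where 7.98% of 8981 genes tested did, and the libraries of the 2 tissues did not overlap for 5 of the 10, against 27.4% of all genes tested. For 12-4.4m1, 4 of the 10 passed, where 6.81% of 8438 did, and 6 of the 10 did not overlap, against 24.1%. The called genes were all receptor chains, and none of the 4 inhibitors passed in either table. At an unadjusted p of 0.05, 4 of the 10 passed for 4-8 and 6 for 12-4.4m1, against 22.2% and 20.3% of all genes tested. By direction, 5.14% of genes tested were called higher and 2.84% lower in islets for 4-8, and 4.63% and 2.18% for 12-4.4m1. The authors' deposited DESeq2 tables called 2 and 3 of the 10 (4-8 and 12-4.4m1), against 6.76% and 4.72% of genes. The authors' deposited Cuffdiff tables called 3 and 4 of the 10, against 15.7% and 14.4%. Over the 10 genes the median difference was 0.05 for 4-8 and 0.06 for 12-4.4m1 on the log2 scale, beside -0.01 and -0.002 over all genes tested, since members lay on both sides of 0.

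**Figure D2:**
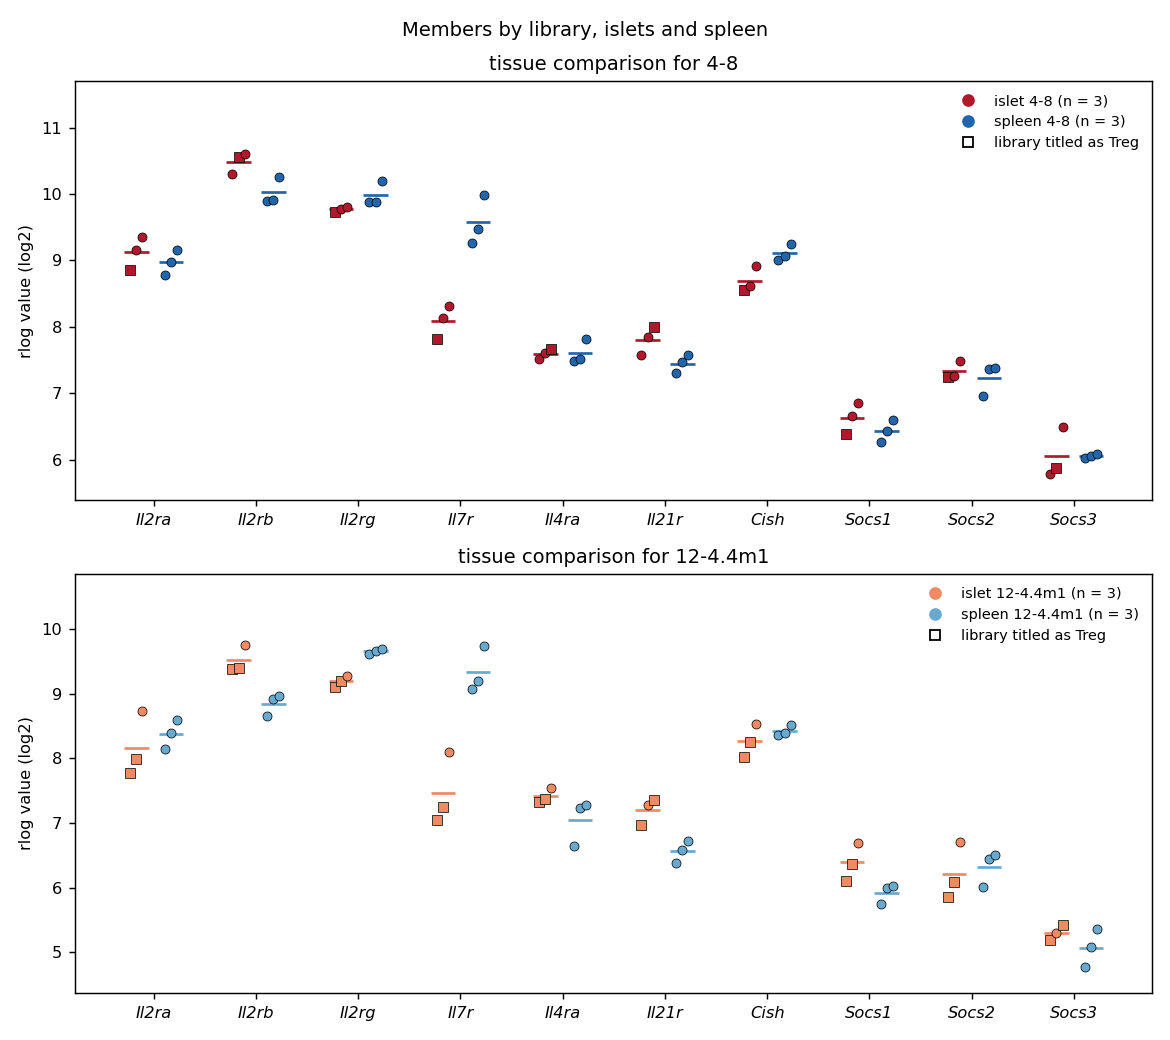
Log2-scale rlog values of the 10 genes in each library of the 2 tissue tables, with the group mean as a line (3 libraries per group) and squares for libraries with Treg in the title. The islet libraries lie below the spleen libraries for Il7r in both panels, while the 2 groups overlap for Il2ra, Socs2 and Socs3.

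Il7r, the gene of the IL-7 receptor chain CD127 (ENSMUSG00000003882, GRCm38 chromosome 15, 9505788 to 9530176, minus strand), was lower in islets with both TCRs. With 4-8, its rlog values were 7.82, 8.14 and 8.32 in islets and 9.26, 9.47 and 9.99 in spleen. With 12-4.4m1, they were 7.05, 7.25 and 8.10 in islets and 9.07, 9.20 and 9.74 in spleen. The highest islet library lay below the lowest spleen library in each table. The 4-8 means were 8.09 ± 0.25 and 9.57 ± 0.38 (SD, n = 3 each), a difference of -1.48 (SE 0.18, 95% interval -1.87 to -1.09), or 2.79-fold lower, with a limma adjusted p of 5.12e-05. For 12-4.4m1 the means were 7.46 ± 0.56 and 9.33 ± 0.35 (SD, n = 3 each), a difference of -1.87 (SE 0.21, interval -2.30 to -1.44), or 3.66-fold lower, with a limma adjusted p of 7.42e-07. In both tables Il7r passed under all 14 alternative settings. With the style of the library titles as a covariate, the 12-4.4m1 difference was -1.24. Every spleen library has an R title, so this value sets 1 islet library, the one with an R title, against spleen. The highest islet library there, at 8.10, is the one with an R title.

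The authors' own differences were wider than those of the rlog values. The authors' deposited FPKM table gave Il7r 4.18-fold lower in islets for 4-8 and 5.43-fold lower for 12-4.4m1. The authors' deposited DESeq2 table gave log2 differences of -1.94 for 4-8 and -2.37 for 12-4.4m1. The difference between the TCRs in the size of this change was not tested, because the tables were normalized separately.

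The signalling chain of the IL-2 and IL-15 receptors was higher in islets for 12-4.4m1. Il2rb (CD122, chromosome 15, 78479256 to 78495271) had rlog values of 9.39, 9.40 and 9.76 in islet 12-4.4m1 and 8.66, 8.92 and 8.97 in spleen 12-4.4m1. Every islet library was above every spleen library, by means of 9.51 ± 0.21 against 8.85 ± 0.16 (SD, n = 3 each). The difference was 0.66 (SE 0.15), or 1.58-fold, with a limma adjusted p of 0.00575, and it passed in 13 of 14 alternatives. Leaving out spleen 12-4.4m1 replicate 2 gave 0.57 with a limma adjusted p of 0.0632.

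For 4-8 the Il2rb values were 10.30, 10.56 and 10.60 in islets and 9.90, 9.91 and 10.26 in spleen. The groups did not overlap, but the highest spleen library came within a few hundredths of the lowest islet library. The difference of 0.46 (SE 0.14, 95% interval 0.16 to 0.77) missed the threshold, with a limma adjusted p of 0.0572. The authors' deposited DESeq2 table called it, with a log2 difference of 0.60 and an adjusted p of 0.0246.

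The shared chain itself went the other way. Il2rg, on chromosome X from 101264378 to 101268255, had rlog values of 9.11, 9.20 and 9.28 in islet 12-4.4m1 against 9.62, 9.67 and 9.69 in spleen 12-4.4m1. These groups were tight and apart. The islet mean of 9.20 ± 0.08 and the spleen mean of 9.66 ± 0.04 (SD, n = 3 each) gave a difference of -0.46 (SE 0.13), or 1.37-fold lower, with a limma adjusted p of 0.0358. The call held in 8 of 14 alternatives and in 2 of the 6 fits that leave out a library: without any 1 of the 3 spleen libraries, or without islet replicate 2, the adjusted p was above the threshold, up to 0.156. In 4-8 cells Il2rg read 9.73, 9.77 and 9.80 in islets and 9.88, 9.88 and 10.20 in spleen. The groups did not overlap there, and the difference of -0.22 (interval -0.51 to 0.07) did not pass, with a limma adjusted p of 0.371.

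Il2ra, the gene of CD25 (chromosome 2, 11642807 to 11693193), did not separate the tissues. Its values were 8.86, 9.16 and 9.35 in islet 4-8 and 8.78, 8.98 and 9.16 in spleen 4-8, which overlap. The difference was 0.15 with an interval of -0.18 to 0.48. With 12-4.4m1 the values were 7.77, 7.99 and 8.74 in islets and 8.15, 8.39 and 8.59 in spleen, so that the islet libraries lay on both sides of the spleen libraries. That difference was -0.21 with an interval of -0.61 to 0.19, and changes within these bounds could not be seen with 3 libraries per group.

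The receptor for IL-21, a cytokine of helper T cells that signals mainly through STAT3, was higher in islets for 12-4.4m1. Il21r lies on chromosome 7 from 125603429 to 125633570, downstream of Il4ra at 125552120 to 125579474. Il21r had rlog values of 6.97, 7.28 and 7.36 in islet 12-4.4m1 and 6.38, 6.59 and 6.72 in spleen 12-4.4m1. The lowest islet library was above the highest spleen library. The means of 7.20 ± 0.21 and 6.56 ± 0.17 (SD, n = 3 each) differed by 0.64 (SE 0.17), or 1.56-fold, with a limma adjusted p of 0.0207. This call held in 9 of 14 alternatives and in 3 of the 6 that leave out a library. It was lost without spleen 12-4.4m1 replicate 2 or 3 or islet replicate 1, with adjusted p up to 0.153. The authors' deposited DESeq2 table did not call it either, at an adjusted p of 0.0516. In contrast, the authors' deposited Cuffdiff table called it, at a q of 0.00786.

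With 4-8, Il21r read 7.57, 7.85 and 8.00 in islets and 7.30, 7.47 and 7.57 in spleen. The groups touched without overlapping. The difference of 0.36 (interval 0.02 to 0.70) did not pass, with a limma adjusted p of 0.200. Il4ra was at 7.51, 7.61 and 7.67 in islet 4-8 and 7.48, 7.51 and 7.81 in spleen 4-8, a difference of -0.01 (interval -0.34 to 0.32). For 12-4.4m1 it was at 7.33, 7.37 and 7.55 in islets and 6.64, 7.23 and 7.28 in spleen. These libraries did not overlap, and the difference of 0.37 (interval 0.004 to 0.73) did not pass, with a limma adjusted p of 0.241.

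Of the brakes, Cish (chromosome 9, 107296026 to 107302784) came nearest to a call. In 4-8 cells its values were 8.55, 8.62 and 8.92 in islets and 9.0, 9.07 and 9.25 in spleen. All 3 islet libraries were below the spleen libraries. The difference was -0.41 (SE 0.15, interval -0.73 to -0.10), with a limma adjusted p of 0.107, and it passed in 2 of 14 alternatives. These were the fit without islet 4-8 replicate 3, at -0.52 with an adjusted p of 0.0331, and the authors' deposited Cuffdiff table, at a q of 0.0421. In 12-4.4m1 cells Cish read 8.03, 8.25 and 8.53 in islets and 8.37, 8.40 and 8.52 in spleen, and the groups overlapped. The difference there was -0.16 with an interval of -0.48 to 0.16.

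Socs1 (chromosome 16, 10782240 to 10785536) had the highest difference among the inhibitors for 12-4.4m1. It read 6.11, 6.37 and 6.69 in islets and 5.75, 5.99 and 6.03 in spleen. The groups did not overlap, and the difference of 0.47 (SE 0.19, interval 0.09 to 0.85) did not pass, with a limma adjusted p of 0.141. With the title style as a covariate it was 0.77. Every spleen library has an R title, so this value sets 1 islet library, the one with an R title, against spleen. In 4-8 cells Socs1 overlapped between the tissues, at 6.39 to 6.85 in islets and 6.27 to 6.60 in spleen.

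Socs2 and Socs3 showed no separation of the tissues in either table. Socs2 (chromosome 10, 95385362 to 95417180) ranged from 7.25 to 7.48 in islet 4-8 and 6.96 to 7.38 in spleen 4-8, and from 5.86 to 6.71 and 6.01 to 6.51 for 12-4.4m1. Socs3 (chromosome 11, 117966079 to 117970047) was at 5.79, 5.87 and 6.49 in islet 4-8, where replicate 3 stood above the others, and at 6.02, 6.05 and 6.08 in spleen 4-8. Its 4-8 difference had an interval of -0.41 to 0.41. For 12-4.4m1 Socs3 ranged from 5.19 to 5.42 in islets and 4.77 to 5.36 in spleen, a difference of 0.23 with an interval of -0.17 to 0.64. For the 4 inhibitors the intervals in the tissue tables reached from -0.73 (Cish, 4-8) to 0.85 (Socs1, 12-4.4m1), which are the shifts that these libraries leave possible.

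Side by side, the 2 tissue tables gave the same sign and no overlap of libraries for 4 of the 10 genes, Il7r, Il2rg, Il2rb and Il21r. Of the 8298 genes tested in both, 10.2% did so. The 2 tables share no library, but the labels do not say whether their libraries came from separate mice. Only Il7r passed in both. The signs differed for Il2ra, Il4ra, Socs2 and Socs3, none of which passed in either.

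**Figure D3:**
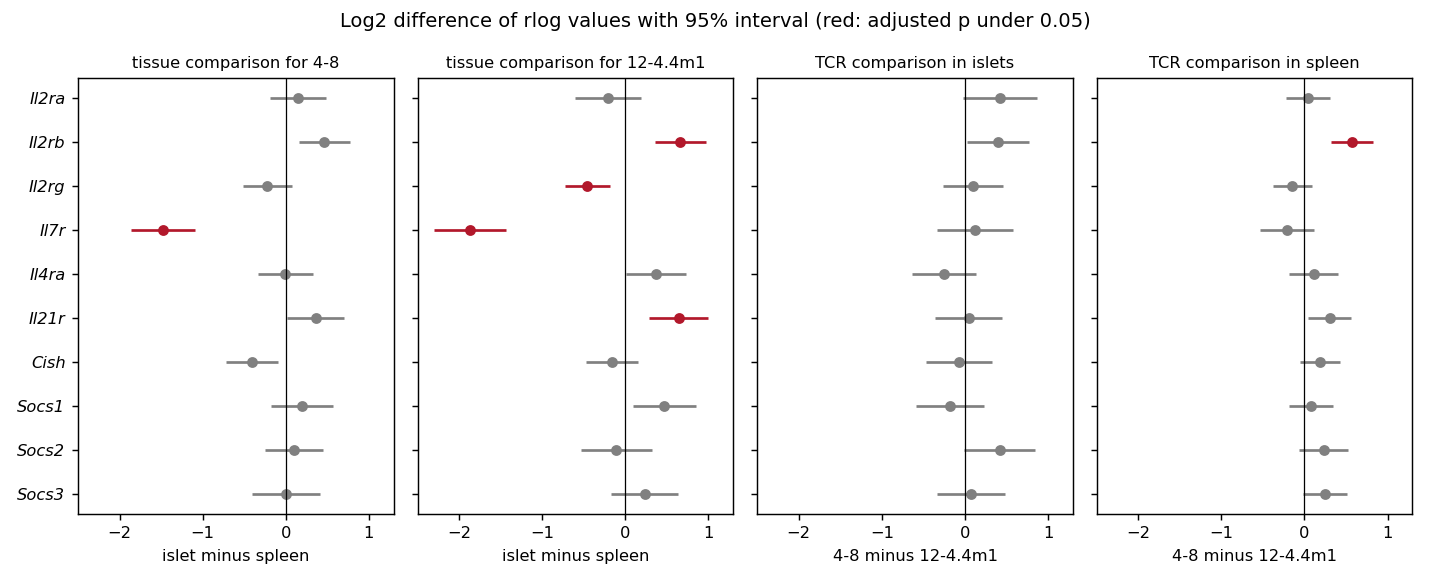
Log2 difference of rlog values (x axis) for each of the 10 genes in the 4 comparisons, with 95% intervals from limma and red for an adjusted p under 0.05. The Il7r intervals lie below -1 in both tissue panels, and all 10 intervals of the islet TCR panel are grey.

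The TCR comparison asked whether Tregs with the high affinity receptor 4-8 differed from those with the low affinity receptor 12-4.4m1 in the same tissue. These tables share libraries with the tissue tables but were normalized separately, and the islet 4-8 column with no matching title stands where the tissue table has replicate 3. For all 10 genes that column stood to replicates 1 and 2 nearly as replicate 3 does there, so by its values it is replicate 3. For Il2ra it read 8.55 beside 8.75 and 8.25, and replicate 3 read 9.16 beside 9.35 and 8.86 in the tissue table. In islets none of the 10 genes passed with limma, where 0.365% of 8212 genes tested did. The authors' deposited tables also called none of them there, by DESeq2 (0.353% of genes called) or Cuffdiff (0.945%). At an unadjusted p of 0.05, 1 of the 10 passed, against 6.78% of all genes tested. Libraries of the 2 TCRs did not overlap for 1 of the 10, against 11.9%. In spleen, 1 of the 10 passed, where 0.428% of 9108 did, and 3 of the 10 did not overlap, against 13.3%. At an unadjusted p of 0.05, 2 of the 10 passed there, against 7.93%. The authors' deposited tables called 1 of the 10 in spleen, by DESeq2 (0.231% of genes called) and by Cuffdiff (1.15%).

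**Figure D4:**
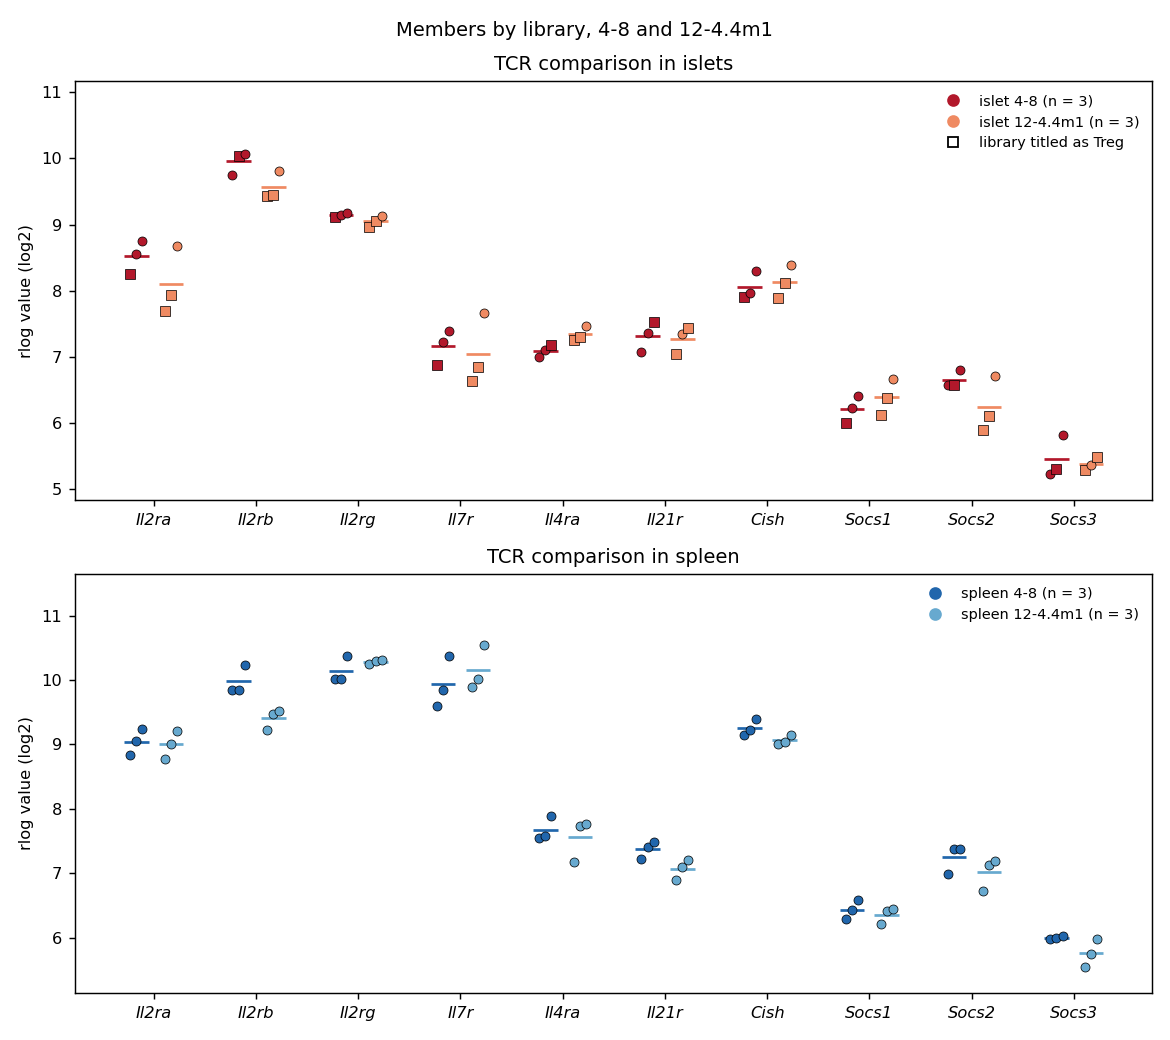
Log2-scale rlog values of the 10 genes in each library of the 2 TCR tables, with the group mean as a line (3 libraries per group) and squares for libraries with Treg in the title. In spleen the Il2rb values of the 4-8 libraries (9.84 to 10.24) lie above those of the 12-4.4m1 libraries (9.22 to 9.52).

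The spleen call was Il2rb, which was higher with the high affinity TCR. Its rlog values were 9.84, 9.85 and 10.24 in spleen 4-8 and 9.22, 9.47 and 9.52 in spleen 12-4.4m1. The means of 9.98 ± 0.23 and 9.40 ± 0.16 (SD, n = 3 each) differed by 0.57 (SE 0.13, interval 0.31 to 0.83), or 1.49-fold, with a limma adjusted p of 0.0391. The authors' deposited DESeq2 table gave an adjusted p of 0.0136, and the authors' deposited FPKM values were 286 and 178. The call held in 10 of 16 alternatives. It was lost without spleen 4-8 replicate 3 (0.44, adjusted p 0.369), without spleen 12-4.4m1 replicate 2 (0.48, adjusted p 0.235) and without replicate 2 of both TCRs (0.54, adjusted p 0.234). Exchanging the libraries of replicate 2, whose descriptions list the other TCR's table, gave 0.15.

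In islets, Il2rb read 9.75, 10.04 and 10.07 with 4-8 and 9.43, 9.44 and 9.81 with 12-4.4m1. The lowest 4-8 library lay under the highest 12-4.4m1 library. The difference of 0.40 (interval 0.02 to 0.77) did not pass, with a limma adjusted p of 0.682. The highest library of the islet 12-4.4m1 group was replicate 3, the one with an R title.

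The other receptor chains did not pass between the TCRs. Il2ra was at 8.25, 8.55 and 8.75 in islet 4-8 and at 7.69, 7.93 and 8.68 in islet 12-4.4m1, with replicate 3 of 12-4.4m1 inside the 4-8 range. The difference was 0.42 (SE 0.22, interval -0.03 to 0.86), with a limma adjusted p of 0.756. It was 0.71 without islet 12-4.4m1 replicate 3 and 0.22 without islet 12-4.4m1 replicate 2. In spleen the Il2ra values were nearly the same, at 8.83 to 9.24 with 4-8 and 8.78 to 9.21 with 12-4.4m1, and the interval ran from -0.23 to 0.31. Il7r differed by 0.12 in islets (interval -0.34 to 0.58) and by -0.21 in spleen (interval -0.54 to 0.12). Il2rg differed by 0.10 in islets (interval -0.26 to 0.46) and by -0.14 in spleen (interval -0.38 to 0.09).

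Il21r was higher in every spleen 4-8 library, at 7.22, 7.40 and 7.49, than in the spleen 12-4.4m1 libraries, at 6.90, 7.09 and 7.21. The difference of 0.30 (interval 0.04 to 0.57) did not pass, with a limma adjusted p of 0.510. Il4ra was lower in every islet 4-8 library, at 7.0, 7.10 and 7.17, than in the islet 12-4.4m1 libraries, at 7.26, 7.30 and 7.47. That difference, -0.25 (interval -0.63 to 0.13), did not pass either, with a limma adjusted p of 0.849.

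Among the inhibitors, Socs2 had the largest islet difference, 0.42 (interval -0.01 to 0.85), with a limma adjusted p of 0.744, and it was 0.66 without islet 12-4.4m1 replicate 3 and 0.25 without islet 12-4.4m1 replicate 2. Its values were 6.58, 6.58 and 6.80 in islet 4-8 and 5.89, 6.11 and 6.71 in islet 12-4.4m1. The last of these again was replicate 3, so the groups overlapped. In spleen, Socs3 was at 5.98, 5.99 and 6.02 with 4-8 and 5.54, 5.74 and 5.98 with 12-4.4m1, so that the groups met at the rounded value of 5.98 without overlapping. Its difference of 0.25 (interval -0.02 to 0.51) did not pass, with a limma adjusted p of 0.678. Cish differed by -0.07 in islets and 0.19 in spleen, and Socs1 by -0.18 and 0.08, all with intervals that include 0.

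In islets the libraries of the title styles did not overlap for 3 of the 10 genes, against 17.6% of all genes tested. Across both TCRs, the 3 Treg-titled libraries ranged from 7.69 to 8.25 for Il2ra, from 6.64 to 6.88 for Il7r and from 8.96 to 9.12 for Il2rg. The 3 R-titled libraries ranged from 8.55 to 8.75, from 7.23 to 7.66 and from 9.13 to 9.18. For these genes every R-titled library was above every Treg-titled one, and the style was unevenly spread over the TCRs, with 1 Treg-titled library in islet 4-8 and 2 in islet 12-4.4m1. With the style as a covariate, the islet TCR difference of Il7r was -0.10 in place of 0.12, and that of Il2ra 0.21 in place of 0.42.

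Downstream of the receptors, the kinase and STAT genes that passed between the tissues were higher in islets. Of 11 JAK and STAT genes tested, 3 rose and 0 fell in each tissue table: Jak3, Stat3 and Stat5a. Of all genes tested, 5.14% were called higher for 4-8 and 4.63% for 12-4.4m1. Jak3, the kinase bound by the common gamma chain, had rlog values of 8.77, 8.86 and 9.06 in islet 4-8 and 7.86, 7.92 and 8.08 in spleen 4-8. With 12-4.4m1 it had 8.53, 8.55 and 8.65 in islets and 7.08, 7.26 and 7.30 in spleen. All islet libraries lay above all spleen libraries, by 0.95 (SE 0.15) and 1.36 (SE 0.15), with limma adjusted p of 4.48e-04 and 5.39e-07. Jak3 passed under all 14 alternatives in both tables.

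Stat3, used by the IL-21 and IL-6 receptors, was higher by 0.66 and 0.94 (4-8 and 12-4.4m1, limma adjusted p 0.00479 and 9.30e-05). Stat5a, used by the IL-2 and IL-7 receptors, was higher by 0.84 and 0.74 (limma adjusted p 0.00458 and 0.00893). The Stat5a call for 12-4.4m1 was lost without spleen 12-4.4m1 replicate 1, at an adjusted p of 0.0766. Its twin Stat5b differed by 0.44 for 12-4.4m1 and did not pass, with a limma adjusted p of 0.0881. The median over the 11 genes was 0.04 for 4-8 and 0.28 for 12-4.4m1, beside -0.01 and -0.002 over all genes. Between the TCRs, 0 of the 11 passed in islets or in spleen, where 0.365% and 0.428% of all genes tested did.

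Other brakes on the pathway were also measured. Of 17 such genes tested, 2 rose and 0 fell in each tissue table: Ptpn6, the phosphatase SHP-1, and Cblb, a ubiquitin ligase that restrains T cell activation. All genes tested were called higher at 5.14% and 4.63%, and the median over the 17 was 0.03 and -0.01. The libraries of 3 of the 17 for 4-8 and 2 for 12-4.4m1 lay lower in islets without overlap and without a call. Those of 4 and 3 lay higher without overlap. In either direction, 27.4% and 24.1% of all genes tested did not overlap. Ptpn6 was higher by 0.68 and 0.82 (4-8 and 12-4.4m1, limma adjusted p 0.0173 and 0.00141), and Cblb by 0.77 and 0.68 (limma adjusted p 0.00778 and 0.00988). For 4-8, Ptpn6 passed in 2 of the 6 fits that leave out a library, up to an adjusted p of 0.0895, and it was lost without spleen 4-8 replicate 1, 2 or 3 or islet 4-8 replicate 1. For 12-4.4m1, Cblb was lost without spleen replicate 1 or 2 or islet replicate 2. It was also lost with the title style as a covariate, a fit that sets 1 islet library against spleen. Leaving out spleen 4-8 replicate 2 lost the 4-8 call of Cblb, at 0.0588. Between the TCRs, 0 of 16 tested passed in islets and 0 of 17 in spleen, where 0.365% and 0.428% of all genes tested did.

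Genes known to respond to IL-2 and STAT5 went in both directions between the tissues. Of 20 tested, 4 rose and 1 fell in each tissue table. Of all genes tested, 5.14% were called higher and 2.84% lower for 4-8, and 4.63% and 2.18% for 12-4.4m1. The 4 were Ctla4, the inhibitory receptor of Tregs, Icos, a co-stimulatory receptor, Cd69, an early activation marker that holds T cells in tissue, and Prdm1, the factor Blimp-1 of effector Tregs. All of these also answer to TCR signals, and Ctla4 is in the Treg marker list too. Ctla4 was higher by 2.03 in islet 4-8 and 2.21 in islet 12-4.4m1, with limma adjusted p of 1.52e-07 and 2.23e-10. The 1 that fell, named after its value was seen, was Ccnd2, a cyclin of the cell cycle, by -0.57 and -0.70 (limma adjusted p 0.0163 and 0.00787). Ccnd2 was lost for 4-8 without spleen replicate 1, 2 or 3 (adjusted p up to 0.117) and for 12-4.4m1 without islet replicate 2. For 12-4.4m1 it was also lost with the title style, a fit that sets 1 islet library against spleen. The median over the 20 was 0.08 and 0.24.

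Between the TCRs, 1 of these 20 passed in spleen and 0 in islets, against 0.428% and 0.365% of all genes tested. The gene was Gzmb, granzyme B, a killing enzyme that effector Tregs also make. It read 9.23, 9.73 and 9.85 in spleen 4-8 and 8.45, 8.55 and 8.86 in spleen 12-4.4m1. All 4-8 libraries were higher, by 0.98 (SE 0.14), with a limma adjusted p of 4.58e-04, and the call held in 15 of 16 alternatives. It was lost when the replicate 2 libraries were exchanged.

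Of the other cytokine receptors of the JAK-STAT type, 10 of 16 listed were tested in each tissue table. For 4-8, 3 rose in islets and 0 fell: Il6st, the gp130 chain of the IL-6 family, by 0.99, Il12rb2, the signalling chain for IL-12, by 1.01, and Ifngr1, the interferon gamma receptor, by 0.75 (limma adjusted p 0.00143, 0.00520 and 0.00406). For 12-4.4m1, 1 rose, Il6st by 0.98, with a limma adjusted p of 0.00225. The median over the 10 was -0.14 and -0.18, and the share of all genes called higher was 5.14% and 4.63%. The libraries of 3 of the 10 lay lower in islets without overlap in each table, among them Il6ra, the binding chain for IL-6 (-0.58 and -0.60, limma adjusted p 0.0567 and 0.0830). Those of 3 for 4-8 and 1 for 12-4.4m1 lay higher without overlap. In either direction, 27.4% and 24.1% of all genes tested did not overlap. Il12rb2 was also the gene of this list that passed between the TCRs in islets, 1 of 9 tested, against 0.365% of all genes tested. It read 5.41, 5.68 and 6.05 in islet 4-8 and 4.60, 4.70 and 4.81 in islet 12-4.4m1, a difference of 1.01 (SE 0.20, limma adjusted p 0.00958). Without islet 12-4.4m1 replicate 1 or 2, or without islet 4-8 replicate 2, its adjusted p rose to as much as 0.102.

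Il10ra, the binding chain for IL-10, passed between the TCRs in spleen, with 8.24 to 8.41 in 4-8 and 7.72 to 7.91 in 12-4.4m1. It was 1 of 11 genes of the same list tested there, against 0.428% of all genes tested. The difference of 0.53 (SE 0.12, limma adjusted p 0.0431) was lost in each of the 6 fits without 1 library. Most remaining ligand and receptor genes of the gamma-chain family, a list of 11, were too low to test. Of the 3 tested in the tissue tables, Crlf2, the TSLP receptor chain that pairs with Il7r, was higher in islet 4-8 by 0.91 (SE 0.18, limma adjusted p 0.00355). Its rlog values were 5.90, 5.97 and 6.10 in islets and 4.97, 5.01 and 5.27 in spleen. It was the 1 of the 3 called for 4-8, where 5.14% of all genes tested were called higher. For 12-4.4m1 the Crlf2 difference was 0.42 (interval 0.02 to 0.82) and did not pass, with a limma adjusted p of 0.225.

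The genes whose pattern over libraries was most like that of each member were found by the mean Pearson correlation over the 4 tables of 6 libraries, among 7928 genes tested in all tables. The tables share libraries and the groups drive part of each correlation, so these values are a description. Il2rb was closest to Ecm1, with a mean r of 0.957, then Trim8 (0.916) and Cd27 (0.906). Il7r was closest to Smek2 (0.908), Il2ra to Fam3c (0.885), Il21r to Lck (0.882) and Il4ra to Eya3 (0.834). Of the inhibitors, Socs1 was closest to Mmadhc (0.919), Cish to Alpk1 (0.886), Socs3 to Dync1li1 (0.859) and Socs2 to Ndufs4 (0.800). Among the 10 genes themselves the highest mean correlations were those of Il2rb with Il21r (0.762), Il2ra with Socs2 (0.702) and Il2rg with Il7r (0.584). The pair furthest apart was Il7r and Il21r, at -0.500.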

How the data were processed

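RNA-seq of 12 libraries (4 groups of 3) was used as deposited in 4 tables of 6 libraries, each normalized separately. Per the labels, sorted cells were lysed in Triton X-100, the RNA reverse transcribed, the cDNA amplified and tagged with Nextera XT. The authors named STAR 1.1.0, TopHat 1.0.0, DESeq2 1.1.0, DESeq and Cufflinks, on mm10 (GRCm38), per the submitters' processing notes, which give them no role. The sources used here state neither strand nor read depth. The authors deposited log2 (rlog) values per library, and DESeq2 tables with the mean normalized count (a signal after their size factors), a log2 fold change and p-values. They also deposited Cuffdiff tables with 1 FPKM per group and p-values and q-values. The authors' normalized means summed to between 898995 and 1316454 per table, which is not a library's depth. The median SE of a difference was 0.123 to 0.193 log2 units.

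Groups came from the titles. Each table was fitted with limma 3.58.1 in R 4.3.3 (lmFit, eBayes with a mean-variance trend), with genes at a mean normalized count of at least 10, 2-sided tests, Benjamini-Hochberg adjustment over all of them and a threshold of 0.05. TCR differences are 4-8 minus 12-4.4m1, and tissue differences islets minus spleen. The direction of the authors' fold changes was read from their group values. Rlog pulls low genes towards their mean, which understates folds. With 3 libraries a side, permutation gives no p under 0.1, and it was not used. Left out were 4 rows with duplicated symbols. The 10 genes and all gene lists were chosen with earlier results of these data known. Named were the 10 genes, at most 4 genes with the smallest p per list, and the 3 genes of most similar pattern per member, and some genes that this rule picks are not reported here. Positions are from GENCODE vM21 and promoters from RefSeq. The fit was tested on simulated data. Alternatives were another filter, no trend, centring, each library left out, a replicate block, title style, the spleen replicate 2 labels, Xist level and the authors' own tests.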

Additional observations from a re-analysis of the deposited data

How the results depend on the processing

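Of 578 values of the 10 genes under alternatives, 521 kept direction and side of the threshold, 18 lost a call, 6 gained one and 33 changed sign, none of these called as reported or past the threshold in the alternative. Il7r kept its call under all 14 alternatives in each tissue table. Calls of limma per table moved as follows. In islets between the TCRs, 30 genes became 15 with a count of at least 50, 52 with the title style, 57 in the authors' deposited Cuffdiff table and 9 to 44 without 1 library, the fewest without islet 12-4.4m1 replicate 1 (9) or 2 (11). In spleen, 39 became 17 without the trend, 19 with the Xist level, 11 without replicate 2 of both TCRs, 0 with these exchanged (244 at an unadjusted p under 0.05), 21 and 84 in the authors' deposited DESeq2 and Cuffdiff tables, and 14 to 56 without 1 library (14 without 4-8 replicate 3, 16 and 23 without replicate 2 of 12-4.4m1 and of 4-8). For 4-8, 717 became 1212 with the title style, 1142 in the authors' deposited Cuffdiff table and 306 to 1211 without 1 library (306, 370 and 326 without spleen replicate 1, 2 or 3, 1211 without islet replicate 2). For 12-4.4m1, 575 became 922 in the authors' deposited Cuffdiff table and 288 to 610 without 1 library (288 and 313 without spleen replicate 1 or 2). Of the 10 genes, the count called in spleen between the TCRs went from 1 to 0 without the trend, without both replicate 2 libraries, with these exchanged and with the Xist level (722 genes of the table had an unadjusted p under 0.05), and was 0 to 1 without 1 library. For 4-8 it was 2 at a count of at least 50, 2 and 3 in the authors' deposited DESeq2 and Cuffdiff tables, and 1 to 2 without 1 library, and for 12-4.4m1 it was 1 to 4 (1 without spleen replicate 2, 2 without spleen replicate 3).

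The values that changed sign follow. With the replicate block in islets Socs3 was -0.12. With the title style Il7r was -0.10 in islets between the TCRs, Socs3 0.088 for 4-8, and Il2ra 0.36, Cish 0.096 and Socs2 0.39 for 12-4.4m1. These 12-4.4m1 values rest on 1 islet library, the one with an R title. With the spleen replicate 2 libraries exchanged, Il2rg was 0.014, Il4ra -0.14, Il21r -0.088, Cish -0.070 and Socs2 -0.20. Il4ra in spleen was also -0.021 without both of them and -0.13 with the Xist level. Socs3 for 4-8 was 0.0040 with centred libraries, and 0.022 and 0.074 in the authors' deposited DESeq2 and Cuffdiff tables. Without 1 library, in islets between the TCRs, Il7r ran from -0.083 to 0.43, Il21r from -0.070 to 0.17, Cish from -0.19 to 0.056 and Socs3 from -0.11 to 0.18. In spleen Il2ra ran from -0.068 to 0.15 and Il4ra from -0.081 to 0.21. For 4-8 Il4ra ran from -0.067 to 0.10, Socs2 from -0.041 to 0.17 and Socs3 from -0.22 to 0.13, and for 12-4.4m1 Socs2 from -0.35 to 0.072. The causes were not tested.

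With the replicate block, islet calls between the TCRs were 53 (over the 2 numbered pairs) and spleen calls 78. Deviations of same-numbered libraries correlated at 0.075 to 0.12 in spleen, where 6 of 6 libraries were closest to their own number. They correlated at -0.039 to 0.127 in islets, -0.118 to -0.048 for 4-8 and -0.033 to 0.04 for 12-4.4m1. The islet 4-8 column with no matching title and islet 12-4.4m1 replicate 3 correlated at 0.209. In spleen the numbers may thus mark pairs, but the labels do not say so and the reported fits use no pairing. With 3 libraries per group and unknown read depth, small differences of the inhibitors are not detectable.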

Other observations

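Il7r is known as a target of FOXO1, and a list of FOXO1 and KLF2 genes of resting T cells, which does not hold Il7r, was read beside it. Of 10 genes tested for 4-8, 4 fell in islets and 1 rose, where 2.84% of all genes tested were called lower and 5.14% higher. Klf3, a repressor induced by KLF2, fell from 7.96, 8.18 and 8.53 in spleen 4-8 to 5.90, 6.01 and 6.46 in islet 4-8, and thus fell by 2.09 on the log2 scale (SE 0.19, limma adjusted p 1.03e-06). S1pr1, the receptor by which T cells leave tissue, fell by 1.07 (limma adjusted p 0.00165). Klf2, named after its value was seen, fell by 0.76 (limma adjusted p 0.0258). The call of Klf2 was lost without spleen 4-8 replicate 1 or 3 or islet 4-8 replicate 1, with adjusted p up to 0.182. Ccr7, a chemokine receptor for lymph node homing, went the opposite way, with 6.19, 6.82 and 7.34 in islet 4-8 and 5.07, 5.57 and 6.01 in spleen 4-8, a rise of 1.23 (limma adjusted p 0.00719, lost at 0.0703 without spleen 4-8 replicate 1).

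For 12-4.4m1, 1 of the 10 fell and 2 rose, where 2.18% of all genes tested were called lower and 4.63% higher. Klf3 fell by 1.09 (SE 0.18, limma adjusted p 2.04e-04), while Ccr7 rose by 1.21 (limma adjusted p 0.00129) and Satb1, a chromatin organiser of T cells, by 0.95 (limma adjusted p 0.00267). The median over the 10 was -0.24 for 4-8 and 0.21 for 12-4.4m1, beside -0.01 and -0.002 over all genes tested, so the list did not move as 1 block. Between the TCRs, 0 of 10 passed in islets and 0 of 9 in spleen with limma, where 0.365% and 0.428% of all genes tested did.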
